A study of Mus musculus with 6 samples.

Results

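The collagens and the genes that cross-link, organise or degrade the matrix around them were followed in mouse embryonic stem cells (ESCs) without Dppa2 (ECAT15-2), a DNA-associated protein found in pluripotent and germ cells. The genes were taken by name: each gene whose RefSeq symbol reads Col, a number, a and a number, together with Mmp2, Lox, Loxl1, Loxl2, Fbn1, Fn1, Dcn, Lum, Bgn, Sparc, Postn, Timp1, Timp2 and Timp3. The list holds 59 genes. Of these, 55 had a probe that could be named, among 18516 named genes on the array, and 37 were tested among 13298 tested genes. The tested genes were 26 collagens and 11 other matrix genes.

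The study hybridised Cy3-labelled total RNA to 6 Agilent mouse expression arrays, 2 for each of 3 groups. The WT cells were 15-1+/+ (the Dppa4, or ECAT15-1, locus) and 15-2+/+, with no vector. The 15-2KO_mock cells were 15-1CT/CT, where CT is a conditional targeted allele, and 15-2-/-, and carried the empty vector piggyBac-CAG-IP. The 15-2KO_Flag15-2 cells had the same genotype and carried piggyBac-CAG-Flag15-2-IP, which makes Flag-tagged Dppa2 from the CAG promoter. Both knockout groups thus differ from WT by the Dppa4 allele and by a vector as well as by Dppa2. Arrays numbered 1 and 2 came from blastocysts of different mothers on a mixed 129Sv and C57/BL6 background with further unknown contributions, and each knockout line, here called line 1 and line 2, gave the mock and the Flag15-2 array of its number. All cells were grown for 3 days on gelatin with 15% FCS and LIF.

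Levels are log2 signals minus the array's own 75th percentile, so 0 is a fairly bright signal. They do not compare one gene with another, because probes differ in brightness. On each array, 55.9% to 60.4% of probes were well above background, and precision is limited by how few arrays there are. The WT arrays differed from each other by less than the scanner's own error estimate: 0.435% of 14943 bright spots lay beyond its 95% limit, against 21.8% for the mock pair and 24.2% for the Flag15-2 pair. Whether the WT arrays are 1 sample or 2 is not settled by this, so WT levels are given without an SD, and with these arrays averaged into 1 sample limma called 0 of 18764 features in each comparison. In those 3 averaged fits (mock against WT, Flag15-2 against mock and Flag15-2 against WT) the unadjusted p was under 0.05 for 6, 5 and 3 of the tested matrix genes, against 12.2%, 7.83% and 8.34% of all features. Dppa2 itself stood at 2.13 and 2.07 in WT, -2.093 and -2.003 in mock, and -0.052 and 0.35 in Flag15-2. The Y-linked genes Eif2s3y and Ddx3y were well above background on both WT arrays and on none of the 4 knockout arrays, so in comparisons with WT the sex of the cells and their genotype cannot be told apart. Of the X-linked matrix genes, Timp1 and Col4a6 were tested and neither was called in any comparison. Both Flag15-2 arrays lay on a slide of their own, so slide and vector cannot be told apart in comparisons with Flag15-2. The WT and mock arrays shared a slide.

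Collagens are proteins of 3 chains wound into a triple helix. Fibrillar collagens such as types I, II, III and V form the ropes of connective tissue, type IV forms the sheet of basement membranes, and lysyl oxidases join the chains by cross-links. Pluripotent cells contact mostly a basement membrane type of matrix, whereas fibrillar collagens, fibrillin and decorin are known for mesenchymal cells. Matrix metalloproteinases cut these proteins, and TIMPs inhibit those enzymes.

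Promoter sequence is shown for 3 of the genes on which the results turn: Fbn1 and Col17a1, which were called, and Col1a2, which differed between the knockout lines. Each is the 250 bases before the gene start, 5′ to 3′ on the gene's strand, from RefSeq on GRCm38.p6, with each CG in capitals. The windows are chr2:125506439-125506688 (minus strand) for Fbn1, chr19:47692043-47692292 (minus strand) for Col17a1 and chr6:4505368-4505617 (plus strand) for Col1a2.
Fbn1: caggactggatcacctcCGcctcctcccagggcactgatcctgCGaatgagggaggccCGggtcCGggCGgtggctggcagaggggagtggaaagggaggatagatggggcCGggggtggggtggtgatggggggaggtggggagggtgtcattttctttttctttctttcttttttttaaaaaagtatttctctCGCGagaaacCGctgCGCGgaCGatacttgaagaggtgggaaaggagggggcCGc
Col17a1: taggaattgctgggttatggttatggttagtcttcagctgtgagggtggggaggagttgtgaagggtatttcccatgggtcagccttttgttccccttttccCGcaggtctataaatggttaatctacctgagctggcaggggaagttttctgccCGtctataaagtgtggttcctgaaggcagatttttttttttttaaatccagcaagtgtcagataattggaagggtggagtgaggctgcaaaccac
Col1a2: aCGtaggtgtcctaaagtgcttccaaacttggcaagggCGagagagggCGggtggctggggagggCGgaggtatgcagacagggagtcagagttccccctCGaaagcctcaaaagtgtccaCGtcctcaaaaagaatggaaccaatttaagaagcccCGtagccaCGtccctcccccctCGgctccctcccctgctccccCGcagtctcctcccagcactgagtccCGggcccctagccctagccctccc

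The Fbn1 window held 13 CG, that of Col17a1 held 2 and that of Col1a2 held 11. A window was given for 42 of the 59 genes (46 windows). They held 0 to 31 CG with a median of 8.5, where the median over all 32841 windows in the table was 6. The only called genes with a window, Fbn1 and Col17a1, thus lay on both sides of that median. Mmp2, Loxl1 and Col2a1 had no window. Searched on both strands, GGGCGG occurred in 58.7% of the windows of these genes against 32.7% of all windows, and TATAAA in 13% against 12.4%. Among the sequences printed, Fbn1 and Col1a2 held GGGCGG and Col17a1 held TATAAA. These are matches of letters and do not show that a factor binds there.

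Mock knockout against WT asks what differed in cells without Dppa2. Of the 37 tested genes, 5 were called lower and 0 higher (limma, two-sided, Benjamini-Hochberg adjusted p under 0.05 across 18764 features), where 6.12% of all features were called, 3.65% lower and 2.47% higher. The 5 were Mmp2, Loxl1, Fbn1, Col17a1 and Col2a1. They have different roles: a protease, a cross-linking enzyme, a microfibril protein, an epithelial transmembrane collagen and a cartilage collagen. An unadjusted p under 0.05 was seen for 13 of the 37, against 27.3% of all features. The median difference of the 37 genes was -0.79, against 0.046 for all features. Genes that passed the filter only through the group where they were high had to differ, so this median and the counts describe the genes and support nothing. Both mock arrays lay below both WT arrays in 24 of the 37 genes, against 28.6% of features, and above both in 3, Col11a2, Col4a6 and Timp1, against 37.2%. Of 25 genes well above background on all 6 arrays, 16 lay below in this way, against 27.3% of such features, and 2 above, against 39.3%. The mean was at least 1 lower in mock in 15 of the 37, against 9.32% of features.

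Mmp2 encodes the gelatinase that cuts denatured and basement membrane collagen. Its level was -0.33 and -0.36 in WT, -4.37 and -4.87 in mock, and -0.68 and -0.75 in Flag15-2. The mock arrays lay far below the other 4, and no groups overlapped. It was 19.4-fold lower in mock than in WT (log2 difference -4.28, SE 0.19, limma adjusted p = 0.00645). The probe was well above background on all 6 arrays, so this fold is measured on both sides.

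Loxl1, a lysyl oxidase family member needed for elastic fibres, had levels of -2.17 and -2.33 in WT, -6.80 and -6.40 in mock, and -4.09 and -4.28 in Flag15-2. The 3 groups were stepped without overlap, and neither mock array was well above background. For such genes the fold is a lower limit, in which each dim array counts at its detection limit, the faintest signal flagged well above background on it, or at the gene's own signal where that was higher. The log2 difference, SE and p-value of such genes use the dim signals themselves, which lie near background. Loxl1 was at least 8.59-fold lower in mock than in WT (log2 difference -4.35, SE 0.18, limma adjusted p = 0.00565).

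Fbn1 encodes fibrillin, the backbone of microfibrils. It stood at -3.47 and -3.60 in WT, -7.09 and -7.02 in mock, and -4.03 and -4.60 in Flag15-2. Neither mock array was well above background, and the Flag15-2 arrays lay just under the WT arrays. The gene was at least 3.53-fold lower in mock (log2 difference -3.52, SE 0.21, limma adjusted p = 0.00899).

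Col17a1, the transmembrane collagen of hemidesmosomes, which anchor epithelia to the basement membrane, stood at -2.52 and -2.67 in WT, -6.91 and -7.61 in mock, and -5.27 and -4.08 in Flag15-2. Only 1 of the Flag15-2 arrays, that of line 2, was well above background, and no mock array was. It was at least 6.78-fold lower in mock (log2 difference -4.67, SE 0.47, limma adjusted p = 0.021).

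Col2a1, the main fibrillar collagen of cartilage, differed by less. Its levels were -1.16 and -1.18 in WT, -2.23 and -2.18 in mock, and -2.08 and -1.74 in Flag15-2. The knockout arrays all lay under the WT arrays, and the gene was 2.04-fold lower in mock (log2 difference -1.03, SE 0.14, limma adjusted p = 0.0364). A dimmer probe of Col2a1 stood at -1.45 and -1.45 in WT and at -2.97 and -2.91 in mock. It was called as well when every probe was tested (limma adjusted p = 0.0104). The dimmer probes of Fbn1 and Col17a1 were well above background on no array, and Mmp2 and Loxl1 had 1 probe each.

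**Figure D1:**
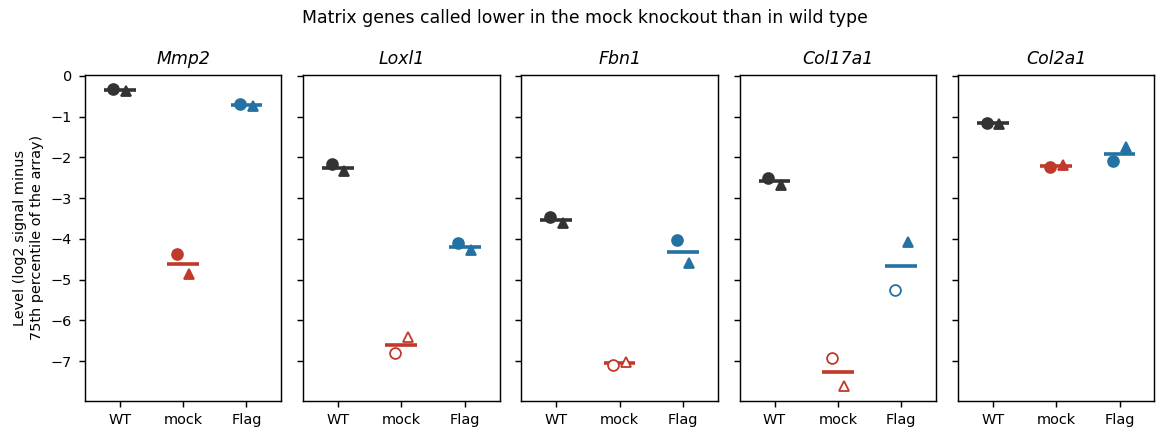
Levels (log2 signal minus the array's 75th percentile) of the 5 matrix genes called lower in mock than in WT, for WT, 15-2KO_mock and 15-2KO_Flag15-2 (Flag). Circles are replicate 1 and triangles replicate 2, open symbols are arrays where the probe was not well above background, and bars are the means of 2 arrays; the mock arrays of Mmp2 lie at -4.37 and -4.87 and the others between -0.33 and -0.75.

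These calls rested on both WT arrays, since 0 of the 5 passed without either of them. Mmp2, Loxl1 and Fbn1 passed without either mock array and with the replicate block, and Col17a1 and Col2a1 did not (limma adjusted p with the block 0.0526 and 0.0607); Col2a1 also missed the threshold with quantile normalization (0.051), with the series matrix values (0.0514) and with no filter (0.0916), so it was called in 8 of 17 alternatives. With normexp background correction the log2 differences were smaller for Mmp2 (-2.69), Loxl1 (-1.52), Col17a1 (-1.39) and Fbn1 (-0.91), and all 5 stayed called.

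Of the 10 fibrillar collagens tested, limma called only Col2a1 in mock against WT. The list's median difference of mock from WT was -1.41, with -0.94 in line 1 and -1.83 in line 2. Col1a1, a chain of type I collagen, stood at 0.78 and 0.75 in WT, -1.69 and -3.54 in mock, and -1.56 and -3.87 in Flag15-2. The 4 knockout arrays lay under both WT arrays, and line 2 lay under line 1 with either vector. The difference of mock from WT was -3.39 (SE 1.00, limma adjusted p = 0.124).

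Col1a2, the partner chain of Col1a1, stood at -0.45 and 0.086 in WT, -2.16 and -4.17 in mock, and -1.60 and -3.95 in Flag15-2. It had the same order as Col1a1, WT above line 1 above line 2, and was not called (log2 difference of mock from WT -2.98, SE 1.06, limma adjusted p = 0.169). A dimmer probe of Col1a1, well above background on both WT arrays only, stood at -3.00 and -2.92 in WT and at -5.31 and -5.83 in mock.

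Col5a2, a chain of the type V collagen that starts fibrils, stood at -3.85 and -3.75 in WT, -4.75 and -7.74 in mock, and -3.66 and -5.49 in Flag15-2. The line 2 arrays were not well above background with either vector, and the WT and Flag15-2 arrays overlapped. The difference of mock from WT was -2.45 (SE 1.18, limma adjusted p = 0.272). Its partner chain Col5a1 was well above background throughout, at -0.031 and 0.037 in WT, -1.18 and -2.43 in mock, and -0.27 and -1.61 in Flag15-2. It too was lowest in line 2 with the empty vector (limma adjusted p of mock against WT 0.162).

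Col3a1, the fibrillar collagen of vessels and loose tissue, stood at -3.43 and -3.50 in WT, -4.31 and -6.21 in mock, and -3.08 and -5.63 in Flag15-2. Line 2 was not well above background with either vector. Col11a2, a minor chain of cartilage fibrils, was the 1 tested gene whose mean was at least 1 higher in mock than in WT, against 3.07% of features, at -5.41 and -5.29 in WT and -4.11 and -4.27 in mock. It was not well above background on either WT array and was not called (limma adjusted p = 0.133). For the remaining fibrillar collagens the difference of mock from WT was -0.92 in line 1 and 0.85 in line 2 for Col5a3, 0.22 and -0.58 for Col11a1, and -0.25 and -1.23 for Col27a1. The lines thus lay on opposite sides of WT for Col5a3 and Col11a1.

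Basement membrane collagens had a median close to that of all features in mock against WT: of 6 tested, limma called 0, with an unadjusted p under 0.05 for 1, and the median difference was -0.026. Col18a1, the source of endostatin, stood at 5.03 and 5.07 in WT, 4.87 and 4.86 in mock, and 5.03 and 5.02 in Flag15-2. Its whole range over 6 arrays was narrow, and the mock arrays were the lowest. Col7a1, the anchoring fibril collagen, stood at 0.72 and 0.73 in WT, -0.21 and -0.22 in mock, and 1.46 and 0.72 in Flag15-2. The mock arrays lay below all others (log2 difference from WT -0.94, SE 0.26, limma adjusted p = 0.112).

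The fibril-associated collagens Col9a2, Col9a3, Col16a1 and Col22a1 differed from WT by -0.31 to -1.62, and limma called 0 of these 4, with an unadjusted p under 0.05 for 1. Col8a1, the network collagen of vessel walls, stood at -2.17 and -1.97 in WT, -3.71 and -5.13 in mock, and -2.33 and -5.30 in Flag15-2. Line 2 was low with either vector, and not well above background with Flag15-2, and line 1 with Flag15-2 lay just under WT (log2 difference of mock from WT -2.35, SE 1.11, limma adjusted p = 0.264). Dcn encodes decorin, the proteoglycan that coats collagen fibrils. It stood at -3.30 and -3.49 in WT, -5.28 and -6.60 in mock, and -4.63 and -5.92 in Flag15-2. All knockout arrays lay under WT, only that of line 1 with Flag15-2 being well above background. The bound was at least 3.89-fold lower in mock, not called (log2 difference -2.54, SE 0.63, limma adjusted p = 0.0921).

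Fn1, Sparc and Timp1 were well above background on all arrays and differed from WT by at most 0.50 in either knockout group. Fn1, fibronectin, stood at 2.62 and 2.67 in WT, 2.60 and 2.72 in mock, and 2.45 and 2.34 in Flag15-2. Sparc, a collagen-binding matricellular protein, stood at 3.52 and 3.51 in WT, 3.02 and 3.19 in mock, and 3.10 and 2.93 in Flag15-2. The Sparc levels of all knockout arrays were under both WT levels, and neither gene was called. Timp1, the inhibitor, stood at 3.14 and 3.12 in WT, 3.33 and 3.41 in mock, and 3.10 and 3.21 in Flag15-2. Timp2 and Timp3 differed from WT by -1.09 and -0.82 in mock and were not called (limma adjusted p = 0.279 and 0.317).

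**Figure D2:**
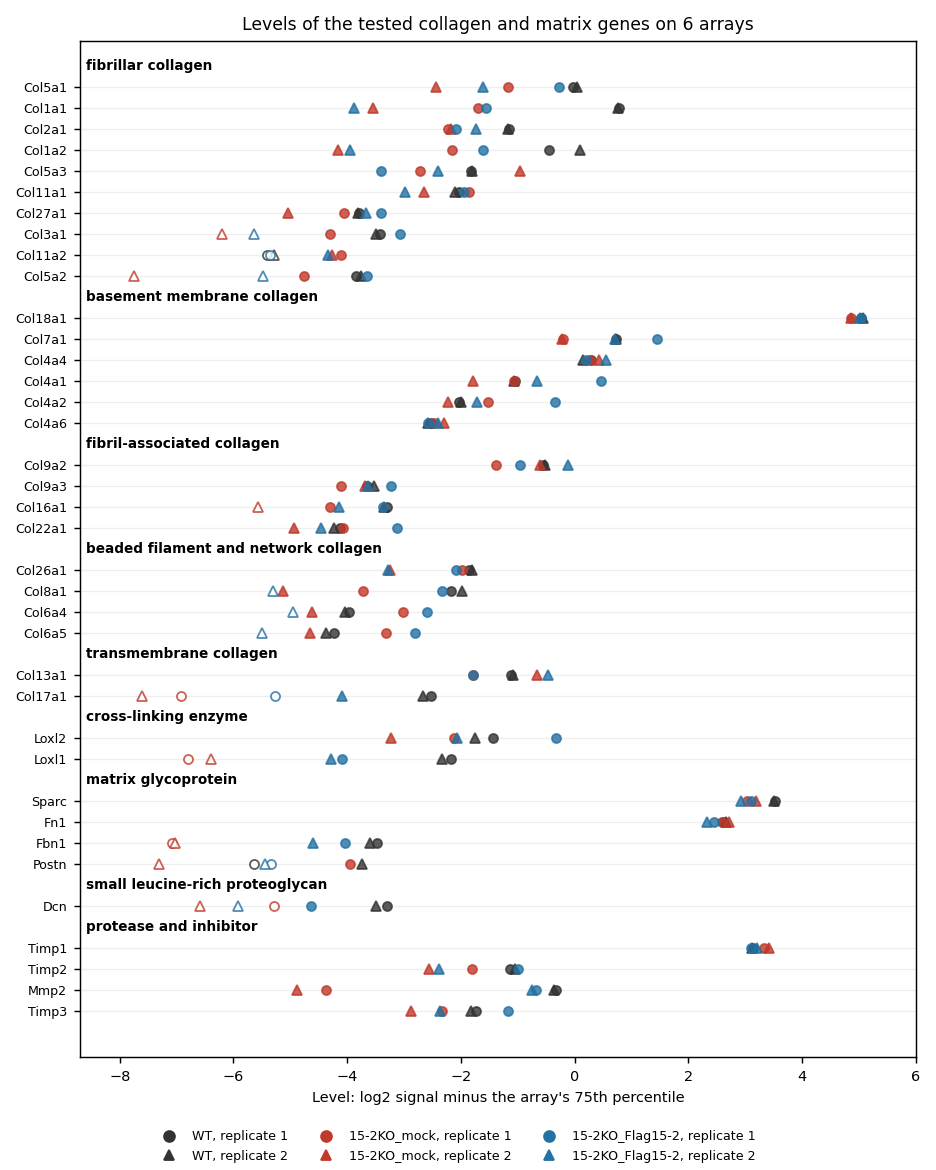
Levels (log2 signal minus the array's 75th percentile) of the 37 tested collagen and matrix genes on the 6 arrays, grouped by role; circles are replicate 1 and triangles replicate 2, and open symbols are arrays where the probe was not well above background. Distances within a row can be read, while rows cannot be ranked; Mmp2, Loxl1 and Fbn1 show the mock arrays apart from the rest, and Col1a1 and Col1a2 show line 2 (triangles) below line 1 in both knockout groups.

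Flag15-2 against mock asks what differed when Dppa2 was returned to the same lines. Of the 37 genes, 3 were called higher and 0 lower, where 0.741% of all features were called, 0.703% higher and 0.0373% lower. An unadjusted p under 0.05 was seen for 7, against 13.4% of all features. The 3 were Mmp2, Loxl1 and Fbn1, all also called lower in mock against WT. The comparisons share the mock arrays, so the values stand side by side and the overlap is no separate result. The median difference of the 37 genes was 0.46, against -0.0063 for all features, and 12 genes had both Flag15-2 arrays above both mock arrays, against 18.1% of features. The 3 genes with both below were Col11a2, Fn1 and Timp1, against 19% of features. As in mock against WT, genes such as Loxl1 and Fbn1 passed the filter only through groups where they were high. The counts and the median of the 37 thus describe the genes and support nothing. Of the 25 genes well above background on all arrays, 8 lay above, against 16.9% of such features, and 2 below, against 19.5%.

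Mmp2 was 15.0-fold higher with Flag15-2 (log2 difference 3.91, SE 0.19, limma adjusted p = 0.0166), by 3.69 in line 1 and 4.13 in line 2. Loxl1 was at least 2.24-fold higher (2.41, SE 0.18, limma adjusted p = 0.0264) and Fbn1 at least 2.05-fold higher (2.74, SE 0.21, limma adjusted p = 0.029). Neither gene was well above background on a mock array, so these differences and p-values rest on mock signals near background. In each line the Flag15-2 array was above the mock array for all 3 genes. Col17a1, well above background on the line 2 Flag15-2 array alone of these 4, was at least 1.60-fold higher and was not called (limma adjusted p = 0.139). Col2a1 was higher by 0.15 and 0.44 (limma adjusted p = 0.489).

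The type I collagen genes differed less between vectors within a line than between lines. Col1a1 differed by 0.13 in line 1 and -0.33 in line 2, and Col1a2 by 0.56 and 0.21. The fits gave -0.10 (SE 1.00) and 0.38 (SE 1.06), neither called. The type IV chains Col4a1 and Col4a2, which form the basement membrane network together, were higher with Flag15-2 by 1.53 and 1.17 in line 1 and by 1.11 and 0.51 in line 2. Their levels were -1.05 and -1.06 (Col4a1) and -2.04 and -1.99 (Col4a2) in WT. In mock they were -1.07 and -1.78, and -1.51 and -2.23. In Flag15-2 they were 0.46 and -0.67, and -0.34 and -1.72. For both genes line 1 with Flag15-2 was the highest array and line 2 with the empty vector the lowest, and limma called neither (adjusted p = 0.345 and 0.595). Dimmer probes of both genes were likewise highest in line 1 with Flag15-2, while that of Col4a1 was lowest on a WT array.

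Col7a1 differed by 1.30 (limma adjusted p = 0.162) and Loxl2 by 1.48 (limma adjusted p = 0.479), while a dimmer Loxl2 probe differed by -0.071. The genes whose means were at least 1 higher numbered 10 of 37, against 6.05% of features. The 1 gene at least 1 lower, against 1.56%, was Col5a3.

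The 3 calls depended on the spread of the WT arrays, which enter the shared estimate: with only the 4 knockout arrays 0 of them passed, with or without the replicate block, and with the block over all arrays 0 passed (limma adjusted p 0.0573 for Mmp2, 0.0666 for Fbn1 and 0.0839 for Loxl1). Mmp2 alone passed with normexp (difference 2.33, against 0.54 for Loxl1 and 0.68 for Fbn1) and without mock replicate 1, Mmp2 and Loxl1 passed without mock replicate 2, and none passed when any 1 of the WT or Flag15-2 arrays was left out.

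Flag15-2 against WT asks what still differed with the vector. Of the 37 genes, 1 was called lower, Loxl1, and 0 higher, where 0.533% of features were called, 0.389% lower and 0.144% higher. Loxl1 was 3.83-fold lower than in WT (log2 difference -1.94, SE 0.18, limma adjusted p = 0.0473), and it did not pass when any 1 of the 6 arrays was left out (0 of 37 genes in each case) with the replicate block (limma adjusted p = 0.106) or with no filter on dim probes (0.111). Mmp2 differed by -0.37 (limma adjusted p = 0.341) and Fbn1 by -0.78 (limma adjusted p = 0.153). Both Flag15-2 arrays lay below both WT arrays for these genes. Col17a1 and Col2a1 differed by -2.08 and -0.74 and were not called (limma adjusted p = 0.118 and 0.101). The dimmer Col2a1 probe differed by -1.04 and passed the threshold when every probe was tested (limma adjusted p = 0.0491). An unadjusted p under 0.05 was seen for 7 genes, against 21.6% of features, and the median difference of the 37 was -0.37, against 0.03 for all features. Both Flag15-2 arrays lay below both WT arrays in 16 genes, against 27.1% of features, and above both in 3, Col27a1, Col4a1 and Col4a2, against 33.2%. Among the 25 genes well above background throughout these counts were 10, against 26.5%, and 3, against 34.8%. The mean was at least 1 lower than in WT in 7 of the 37 genes, against 5.45% of features, and at least 1 higher in 0, against 3.11%. Col1a1 and Col1a2 stood furthest below WT, by -3.49 and -2.60, and were not called (limma adjusted p = 0.161 and 0.26).

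The knockout lines differed from each other in a large share of these genes. In 11 of the 37, line 2 was at least 1 below line 1 both with the empty vector and with Flag15-2, where 4.06% of all features were. Among the 25 genes well above background on all arrays there were 5, against 2.75% of such features. The 11 were the fibrillar chains Col1a1, Col1a2, Col3a1, Col5a1 and Col5a2, the filament and network collagens Col6a4, Col6a5, Col8a1 and Col26a1, the cross-linking enzyme Loxl2, and Dcn. Of these, Col3a1, Col5a2, Col6a4, Col6a5, Col8a1 and Dcn had a line 2 array that was not well above background. For Dcn neither mock array was, so its gap in mock lies between background signals. A dimmer Loxl2 probe had a smaller gap in mock, at -3.70 and -4.40, and stood at -3.28 and -4.96 in Flag15-2. There is 1 array per line and vector, so no test was made.

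Line 2 was below line 1 by 1.85 (mock) and 2.31 (Flag15-2) for Col1a1, and by 2.00 and 2.35 for Col1a2. For Col8a1 it was below by 1.42 in mock, while its line 2 Flag15-2 array was not well above background. The 5 called genes did not show this: Mmp2, for example, differed between lines by -0.50 in mock and -0.063 in Flag15-2. The gap between lines is part of the spread that limma uses, so genes with a large gap were unlikely to be called. That the called genes lack the gap thus supports nothing. The line difference of Col18a1 was -0.0048 and -0.0056. Col5a3 and Col13a1, a transmembrane collagen, went the other way, with line 2 above line 1 by 1.76 and 1.00 and by 1.13 and 1.31, where 2.02% of features did so.

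Of the 59 genes, 9 pairs are next to each other on a chromosome, and both genes were tested in 3 of them. On the probes used, the same array was the highest and the same array the lowest within each of these pairs, which is a description with no test. Col3a1 and Col5a2 both had line 2 mock as the lowest array and line 1 Flag15-2 as the highest, as did Col4a1 and Col4a2. For Col3a1 and Col5a2 that lowest array was not well above background. A dimmer Col4a1 probe was lowest on WT array 1, at -2.56, with line 2 mock at -2.54. Col6a4 stood at -3.96 and -4.03 in WT, -3.02 and -4.61 in mock, and -2.59 and -4.95 in Flag15-2. Col6a5 stood at -4.23 and -4.36 in WT, -3.31 and -4.65 in mock, and -2.80 and -5.50 in Flag15-2. Both were highest in line 1 with Flag15-2 and lowest, not well above background, in line 2 with Flag15-2. Whether their probes share sequence was not tested, and a dimmer Col6a4 probe did not show the line gap, at -4.27 and -4.63 in mock and -4.76 and -4.22 in Flag15-2.

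**Figure D3:**
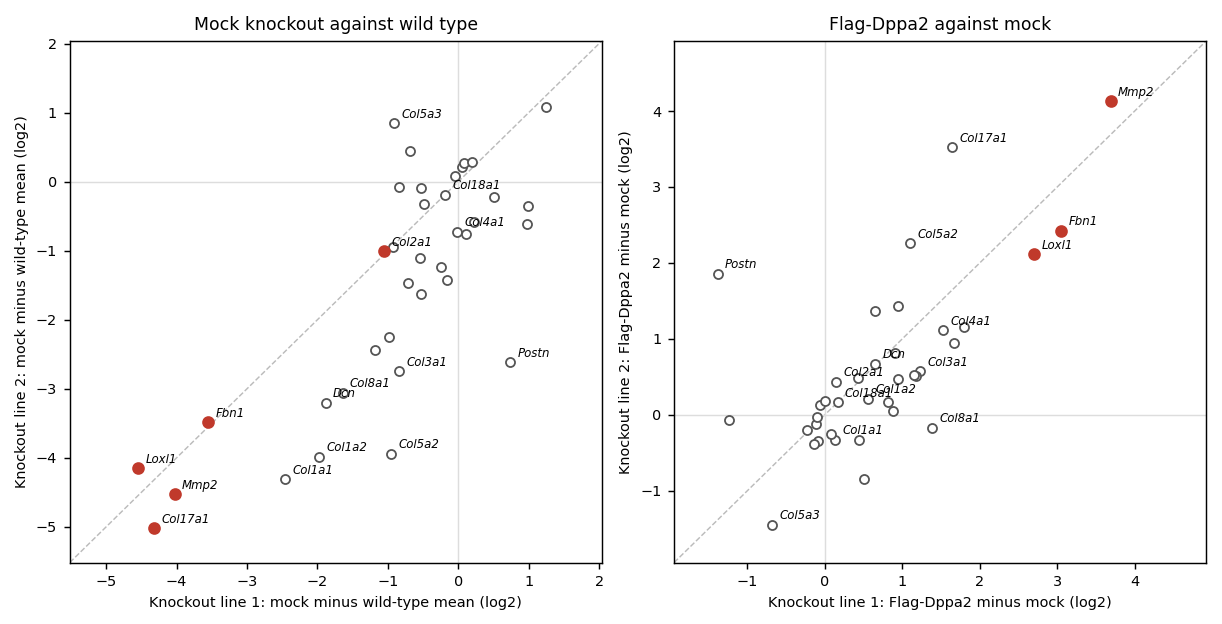
Log2 differences of the 37 tested genes in line 1 (horizontal axis) and line 2 (vertical axis), for mock minus the WT mean on the left and Flag15-2 minus mock on the right; filled points were called by limma, and the dashed line marks equal differences. Called genes lie near the dashed line (Mmp2 at 3.69 and 4.13 on the right). A gap between lines widens the spread that limma uses, so calling favours genes near that line. Col1a1, not called, lies at -2.46 and -4.31 on the left and at 0.13 and -0.33 on the right.

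Genes that make, cut or bind these proteins were called in mock against WT at about the share of all features. The 135 genes listed include prolyl and lysyl hydroxylases, procollagen proteinases, laminins, elastic fibre proteins, other proteases and integrins, and 95 of them were tested. In mock against WT 2 of the 95 were called higher and 4 lower, where 2.47% and 3.65% of all features were, and the median was -0.28, against 0.046 for all features. Pcolce, the enhancer of procollagen cleavage, was higher by 1.42 (limma adjusted p = 0.0392), and Ltbp4, which binds latent TGF-beta to microfibrils, by 0.98 (limma adjusted p = 0.019). Mfap4, a microfibril-associated protein, was at least 14.6-fold lower (limma adjusted p = 0.0214) and not well above background on either mock array.

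Spock2, a matrix proteoglycan, fell by 1.47 on the log2 scale (limma adjusted p = 0.0115). The membrane-bound protease Mmp23 fell by 1.10 (limma adjusted p = 0.0225), and P3h4, a partner of collagen-modifying enzymes, fell by 0.72 (limma adjusted p = 0.0423). These 3 were well above background on all arrays. Lists this short hold about 1 call each at the 6.12% of all features, so the counts by list are given only as a record. Collagen biosynthesis had 1 higher and 1 lower of 22, elastic fibre 1 and 1 of 15, matricellular and proteoglycan 0 and 1 of 13, protease and inhibitor 0 and 1 of 13, laminin and basement membrane 0 of 14, and receptors 0 of 18, the last 2 lists with an unadjusted p under 0.05 for 5 genes each, against 27.3% of all features. In Flag15-2 against mock and against WT limma called 0 of the 95, where 0.741% and 0.533% of all features were called, so a count of 0 is near the background. The unadjusted p was under 0.05 for 18 genes in each comparison, against 13.4% and 21.6% of features, and the medians were 0.15 and -0.027.

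Markers of other cell types differed between the same arrays. In bulk RNA, fewer cells of a type and less RNA per cell cannot be told apart. The summed level of 20 fibroblast and feeder markers, in multiples of the 75th percentile, was 58.7 and 63.3 in WT, 42.9 and 27.6 in mock, and 62.1 and 35.8 in Flag15-2. It was lowest in line 2 with either vector, the same line that was low for the 11 matrix genes, and its part in those results was not tested. A sum follows its brightest probes: Vim, Tagln and Acta2 held 86.4% to 90.8% of it. The other 17 summed to 7.98 and 8.25 in WT, 3.95 and 3.34 in mock, and 6.03 and 4.21 in Flag15-2. Acta2 did not follow the sum, with both mock arrays above both WT arrays, at 3.10 and 3.07 in WT and 3.44 and 3.22 in mock. Of the 20 markers, 15 were tested and 5, Prrx1, Fap, Tcf21, Fgf7 and Igfbp5, were well above background on no array. Twist2 was well above background on the WT arrays only, so it passed the filter through the group where it was high, and it was at least 4.10-fold lower in mock and at least 3.44-fold lower in Flag15-2 (limma adjusted p = 0.00489 and 0.0165). The mean of 12 of the 15 tested markers was lower in mock than in WT, and the list's median difference was -0.12 in line 1 and -0.90 in line 2. Thy1 stood at 1.04 and 1.07 in WT, 0.12 and 1.04 in mock, and -0.14 and 0.78 in Flag15-2.

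The summed level of 12 extraembryonic endoderm markers, a cell type rich in type IV collagen and laminin, was 2.52 and 2.53 in WT, 1.49 and 1.09 in mock, and 3.36 and 2.72 in Flag15-2. Both Flag15-2 arrays were the highest, as for Col4a1. The other tested type IV genes, Col4a2, Col4a4 and Col4a6, did not have this order, and no tested laminin did. For Col4a2, line 2 with Flag15-2 (-1.72) lay below line 1 with the empty vector (-1.51). Pth1r, Amn, Sox7, Fst, Gata6 and Cubn held 71.5% to 82.9% of this sum. Amn was called lower in mock than in WT (log2 difference -3.03, limma adjusted p = 0.0195), and Hnf4a was well above background on no array. Of the 11 tested markers, 9 had a lower mean in mock than in WT, and the median difference was -0.53. The 2 with a higher mean were Gata4 (1.47) and Sox17 (0.61), neither called. In Flag15-2 the mean was above WT for 9 markers and below for 2, Amn (-0.93) and Fst (-1.86). The part of this list in the type IV values was not tested. The 8 trophoblast markers summed to 68.1 and 69.5 in WT, 42.7 and 21.6 in mock, and 136.8 and 32.1 in Flag15-2. The keratins Krt18 and Krt8 held 94.2% to 98.4% of this sum. The median difference of the 7 tested markers was -1.12 for mock from WT and -0.13 for Flag15-2 from WT. The means of Krt7, Eomes, Krt8 and Hand1 lay below WT in both knockout groups, and those of Cdx2 and Gata3 above. Krt18 differed from WT by -1.12 in mock and 0.01 in Flag15-2.

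The 10 pluripotency markers with a probe were well above background on all 6 arrays and summed to between 506 and 710, of which Dppa5a and Klf4 held 75.03% to 82.8%. Utf1 was called higher in mock than in WT, by 0.87 (limma adjusted p = 0.0384), and the list's median difference was 0.49. In Flag15-2 against mock the mean was lower for 9 of the 10 markers, and the median difference was -0.39. Pou5f1 was the exception, higher by 1.48 than in mock and by 2.26 than in WT, and not called (limma adjusted p = 0.105 and 0.0519). Zfp42 (Rex1) stood at 3.57 and 3.63 in WT, 3.57 and 6.39 in mock, and 3.56 and 6.35 in Flag15-2. It was thus high in line 2 with either vector, the line that was low for the 11 matrix genes, and its part in those results was not tested. The other markers did not share this gap as a set. Line 2 was below line 1 for 4 of the 10 markers in mock and 5 in Flag15-2, with Klf4 and Tbx3 below in both. The list's median difference of mock from WT was 0.44 in line 1 and 0.35 in line 2.

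Of the 59 genes, 18 had a probe that did not reach the filter of 2 arrays well above background, and they were not tested: Col4a3, Col4a5, Col6a1, Col6a2, Col6a6, Col8a2, Col9a1, Col10a1, Col14a1, Col15a1, Col19a1, Col20a1, Col23a1, Col24a1, Col25a1, Col28a1, Lum and Bgn. For 4 more, Col6a3, Col12a1, Col21a1 and Lox, no probe could be named. Postn passed the filter through 1 WT and 1 mock array only, at -5.64 and -3.73 in WT and -3.95 and -7.30 in mock, and its values show no group pattern.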

How the data were processed

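Per the file headers, Agilent Feature Extraction (version 10.7.3.1, protocol GE1_107_Sep09) made the deposited intensity values. It subtracts background and spatial trends; arrays are not scaled to each other. The series matrix holds log2 values that the authors deposited, with GeneSpring GX 11 named in the series design. They follow a quantile normalization without centring, with column medians of 5.84 to 5.86, and were used as an alternative. The files hold RefSeq accessions, and 27143 probes were named through a RefSeq table.

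Control spots and outlier spots were left out, spots of a probe were averaged, and each array's 75th percentile was subtracted in log2. Probes had to be well above background on 2 or more of 6 arrays, and the brightest probe of a gene was used. All 6 arrays went into 1 limma 3.58.1 fit (R 4.3.3, lmFit and eBayes, statmod 1.5.0) of 3 groups with no block, two-sided and adjusted over 18764 features, called under 0.05. Figures were drawn with matplotlib 3.10.9. The fitting steps were tested on simulated data. Arrays 1 and 2 of a knockout group came from different lines, and the labels do not otherwise say which arrays are separate cultures. For WT, given as from different mothers, whether the arrays are 1 sample or 2 is not settled. The p-values thus rest on a spread pooled over the groups: between lines in the knockout groups and between the WT arrays. If the WT arrays are 1 sample, their part of that spread is technical only.

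The genes, lists and tests were chosen with earlier results of these data known. Genes called in any comparison, or with group means at least 2 apart (log2) and both arrays of a group above background, are given with all 6 values. Further genes were named as examples of their role. Same-numbered mock and Flag15-2 arrays share a line, per the labels, and their deviations from group means correlated (0.59), against -0.04 for WT and mock and 0.014 for WT and Flag15-2. The alternatives were other backgrounds, scalings, filters, models and left-out arrays. Normexp used median in place of mean spot signals.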

Additional observations from a re-analysis of the deposited data

How the results depend on the processing

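Counts of called features in mock against WT, 1149 as reported (464 higher, 685 lower), were 384 with no filter on dim probes (42 and 342), 494 with the replicate block (106 and 388), 1761 with an intensity trend (845 and 916), 0 with the WT arrays averaged, and 0 to 888 with 1 array left out. Normexp, quantile normalization and the series matrix gave 788 higher and 883 lower, 663 and 690, and 682 and 690. The count of matrix genes, 5, was 2 with the filter of all 6 arrays, 3 with the block, 0 with WT averaged, and 0 to 7 with 1 array left out. Without either Flag15-2 array, which equals the fit within the first slide, the 7 included Col7a1 and Col11a2. In Flag15-2 against mock, the 139 features were 53 with normexp, 28 with the filter of all 6 arrays, 48 with no filter, 4 with the block, 0 with WT averaged, 0 with only the groups compared, 0 with the knockout arrays and the replicate block, and 0 to 112 with 1 array left out. The 3 matrix genes were 1 with normexp, the all-array filter, no filter or the trend, 0 with the block, WT averaged, only the groups compared, or the knockout arrays with the block, and 0 to 2 with 1 array left out. In Flag15-2 against WT, the 100 features (27 higher, 73 lower) were 390 with normexp (192 and 198), 222 after quantile normalization (91 and 131), 223 with series matrix values (92 and 131), 23 with the all-array filter, 6 with no filter, 0 with the block, 301 with the trend (166 and 135), 0 with WT averaged, 5 with only the groups compared, and 0 to 5 with 1 array left out. The 1 matrix gene was 0 with the all-array filter, no filter, the block, WT averaged, only the groups compared, and 0 to 0 with 1 array left out. The causes were not tested. No gene that was called changed direction, and the replicate block changed no other call than those given. Differences that were not called turned sign in 7 of 482 cases: Flag15-2 minus mock became 0.83 (without mock 1) and 1.06 (without Flag15-2 2) for Col1a1, -0.62 (without mock 2) and -0.79 (without Flag15-2 1) for Col1a2, and -0.10 and -0.88 for Col8a1 without the same arrays, and Flag15-2 minus WT became 0.14 for Col5a2 without Flag15-2 2. Over all left-out arrays these 4 differences ranged from -1.26 to 1.06, -0.79 to 1.56, -0.88 to 2.09 and -1.69 to 0.14. With no filter the median of all features moved to -0.15 in mock against WT. Slide as a block was not run, since both Flag15-2 arrays fill a slide of their own. Averaging the WT arrays and the fit on the knockout arrays with the block were chosen after seeing the data or earlier results. Background limits Loxl1, Fbn1, Col17a1 and Dcn in mock to bounds.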
